A study of Mus musculus with 32 samples.

Results

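Bone marrow-derived macrophages (BMDMs) from Ifnar1-/- mice were compared with BMDMs from WT C57BL/6 mice after LPS. The members were picked by their genotype and treatment labels: 2 Ifnar1-/- and 2 WT arrays treated with LPS, 4 of the 32 arrays of the series. Earlier results of these data were known when this comparison and the gene lists used below were chosen. Another 4 arrays, 2 untreated ones of each genotype, were added to ask whether the response to LPS itself differed. All cells were grown from bone marrow in M-CSF (5 ng/mL, per the labels), which turns marrow precursors into macrophages, and RNA was taken 6 h after treatment. The labels give LPS at 100 ng/mL for both genotypes, whereas the study's own text gives lower doses, so the dose is uncertain. The Ifnar1-/- animals lack IFNAR1 in all cells, including the precursors that became these macrophages. No label says whether the 2 arrays of a group came from separate mice or cultures, so every p-value measures the spread between these arrays, which may be technical, and 2 arrays a group limit the precision.

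LPS, a component of the outer wall of Gram-negative bacteria, binds TLR4 on macrophages. One branch of the TLR4 signal acts through the adaptor MyD88 on NF-kB and MAP kinases, which drive inflammatory cytokines, and the other acts through the adaptor TRIF on IRF3, which turns on the gene of interferon beta. Secreted interferon beta binds the receptor formed by IFNAR1 and IFNAR2 on the same and on neighbouring cells, and the kinases JAK1 and TYK2 then activate STAT proteins. These join IRF9 in the complex ISGF3, which binds the interferon-stimulated response element (ISRE) of antiviral genes. Cells without IFNAR1 sense LPS through TLR4 but cannot answer the type I interferon they secrete, and they also miss the low interferon signal of resting cells.

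RNA was hybridized to 1-colour arrays, and a value here is the log2 of a probe's intensity after quantile normalization. A difference of 1 on this scale is a doubling. Each gene was represented by its brightest probe. In all, 17121 genes were well above background on both arrays of at least 1 of the 4 groups and were tested with limma, and a gene with a Benjamini-Hochberg adjusted p under 0.05 over all of them is called. Under LPS 4333 genes (25.3%) were called between the genotypes, 2646 (15.5%) higher and 1687 (9.85%) lower in Ifnar1-/- cells. The genotype-by-LPS interaction, which is the LPS response of Ifnar1-/- cells minus that of WT cells, was called for 768 genes (4.49%). It was positive in 292 (1.71%) and negative in 476 (2.78%). LPS itself called 6501 genes (38%) in WT cells, of which 16.1% of all genes rose and 21.9% fell, and 3958 genes (23.1%) in Ifnar1-/- cells, where 10.4% rose and 12.7% fell. Without LPS 1217 genes (7.11%) were called between the genotypes, 4.15% higher and 2.96% lower.

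The split into higher and lower genes depended on how arrays were scaled. With each array shifted to a common 75th percentile, the genes higher in Ifnar1-/- cells under LPS were 49% of the called genes in place of 61.1%, and the median difference of all genes was -0.11 in place of 0.09. The arrays lie on 4 slides, each with all 8 treatments of 1 genotype and replicate number, and the WT slides were scanned on other days than the Ifnar1-/- slides. For the genotypes under LPS, the effect of the slide and that of the genotype therefore cannot be told apart. A slide effect that adds equally to all arrays of a slide cancels in the change with LPS on that slide. The interaction and the within-slide responses therefore stand beside many of the differences below. A slide effect on the scale or on the background would not cancel. The lowest signal that counted as measured was 3.13 to 4.25 on WT and 4.36 to 4.87 on Ifnar1-/- arrays. The interaction was fitted from group means, with the slide only in alternatives. The LPS arrays of the genotypes did not overlap for 62.6% of all genes (25.1% lower and 37.4% higher in Ifnar1-/- cells). The within-slide LPS responses of the genotypes did not overlap for 61% (26.2% lower, 34.8% higher), so a lack of overlap with 2 arrays a group is common. With the slide as a random block the interaction called 2383 genes, and with the slide as a fixed block 1067.

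A probe that is not well above background on either array of a group has only an upper bound there. For such genes the difference is given as at least N-fold, against the lowest signal that counted as measured on those arrays. All arrays had 56.8% to 72.5% of probes well above background and none had saturated probes. The 11 genes of a macrophage marker list were above background on all LPS arrays, and their summed intensity was 1080000 and 1050000 on the WT LPS arrays and 1130000 and 1180000 on the Ifnar1-/- ones. Csf1r, the M-CSF receptor, read 18.11 and 18.04 in WT and 17.98 and 18.04 in Ifnar1-/- cells under LPS. In bulk RNA, fewer cells of a type and less RNA per cell cannot be told apart.

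Ifnar1 itself was measured by 3 probes on chromosome 16 of the mm9 build. The brightest, at chr16:91510673-91510732, read 14.46 and 14.42 on the untreated WT arrays, 14.59 and 14.82 on the WT LPS arrays, 12.13 and 12.11 on the untreated Ifnar1-/- arrays and 12.66 and 12.69 on the Ifnar1-/- LPS arrays. Every Ifnar1-/- array was below every WT array, with and without LPS. The difference under LPS was -2.03 ± 0.16 (SE, adjusted p = 0.000757, limma), a 4.09-fold lower signal, and the other probes differed by -3.01 and -3.32. The transcript was lower but still well above background on all Ifnar1-/- arrays, and where the probes lie relative to the disrupted part of the gene is not given in the sources used here. Ifnar2, the partner subunit, differed by -0.21 (95% confidence interval -0.98 to 0.55), and the interferon gamma receptor genes Ifngr1 and Ifngr2 by 0.31 (-0.39 to 1.02) and -0.40 (-0.82 to 0.03), none of them called. Ifnb1, which encodes interferon beta, is described with the cytokines.

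The stretches below show where an ISRE core or a kappaB core (the site of NF-kB) lies in promoters of genes described here. They are examples, since most genes called in either direction held neither core, and Ifi209, Ifit2, Isg20 and Tlr3, all lower in Ifnar1-/- cells under LPS, held a kappaB core and no ISRE core. The ISRE core was searched as GAAANNGAAA and the kappaB core as GGGANNTTCC, on both strands, in the 250 bases before the start of each gene (RefSeq, build GRCm38.p6), where N is any base, and a core on the opposite strand reads as its reverse complement. Capitals mark the cores, and sequences are written 5′ to 3′ along the gene's own strand. The first pair are the genes of the naming rule (the 12 lowest and 12 highest interactions, described below) with an ISRE core. The others were chosen after their values were seen.

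Oas3, chr5:120777701-120777758, minus strand: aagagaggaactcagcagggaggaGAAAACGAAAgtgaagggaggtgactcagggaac
Ifi214, chr1:173536003-173536060, minus strand: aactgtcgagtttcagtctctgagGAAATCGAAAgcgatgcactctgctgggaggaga
Ifit3, chr19:34583383-34583440, plus strand: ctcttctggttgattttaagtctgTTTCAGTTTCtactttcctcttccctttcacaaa
Ifit1, chr19:34640761-34640818, plus strand: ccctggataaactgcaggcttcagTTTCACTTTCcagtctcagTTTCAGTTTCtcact
Isg15, chr4:156200857-156200914, minus strand: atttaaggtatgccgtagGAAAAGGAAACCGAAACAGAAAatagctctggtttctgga
Igtp, chr11:58199498-58199555, plus strand: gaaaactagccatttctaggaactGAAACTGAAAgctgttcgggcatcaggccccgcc
Irgm1, chr11:48871421-48871474, minus strand: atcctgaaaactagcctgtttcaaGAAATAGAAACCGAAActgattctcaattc
Cxcl10, chr5:92349069-92349126, minus strand: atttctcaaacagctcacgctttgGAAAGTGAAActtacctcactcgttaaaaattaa
Cxcl10, kappaB core, chr5:92349015-92349072, minus strand: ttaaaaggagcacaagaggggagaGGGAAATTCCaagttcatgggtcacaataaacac
Cxcl3, chr5:90786004-90786061, plus strand: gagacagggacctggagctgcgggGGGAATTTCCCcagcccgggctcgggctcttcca
Cxcl1, chr5:90891150-90891207, plus strand: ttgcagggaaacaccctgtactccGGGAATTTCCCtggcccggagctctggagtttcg
Cxcl2, chr5:90903778-90903835, plus strand: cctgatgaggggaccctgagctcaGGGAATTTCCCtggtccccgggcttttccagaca
Ifnb1, chr4:88522877-88522934, minus strand: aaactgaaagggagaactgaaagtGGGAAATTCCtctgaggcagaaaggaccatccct

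Isg15 carries several overlapping ISRE cores in 1 run, Ifit1 carries a pair of them, and Cxcl10 carries both an ISRE and a kappaB core. The chemokine genes Cxcl1, Cxcl2 and Cxcl3 lie side by side on chromosome 5 and share the kappaB core GGGAATTTCCC, which reads as a match on both strands. Of the genes tested, 13461 had a promoter in the table, and 470 of these (3.49%) held an ISRE core. The share was 96 of 1321 (7.27%) among genes lower in Ifnar1-/- cells under LPS and 53 of 2088 (2.54%) among those higher. It was 47 of 379 (12.4%) among genes with a negative interaction and 12 of 224 (5.36%) among those with a positive one. A kappaB core was found in 190 of all promoters (1.41%), in 6 of 379 (1.58%) with a negative interaction and in 15 of 224 (6.7%) with a positive one. Under LPS it was found in 23 of 1321 lower genes (1.74%) and in 29 of 2088 higher genes (1.39%). Between untreated cells a kappaB core was found in 17 of 380 lower (4.47%) and 4 of 543 higher genes (0.737%). An ISRE core was found there in 43 of 380 lower (11.3%) and 12 of 543 higher genes (2.21%). These shares are descriptions of letters in a window, and a match is not a bound site.

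**Figure D1:**
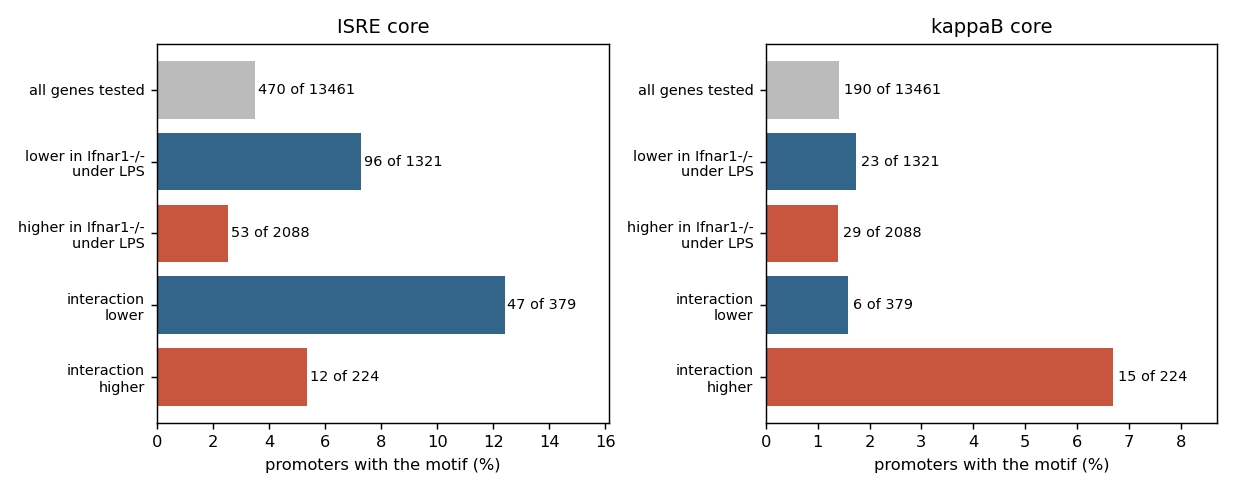
Percent of promoters (250 bases before the gene start) that hold an ISRE core or a kappaB core, for all genes tested and for genes called lower or higher in Ifnar1-/- cells under LPS or by the interaction. The tallest ISRE bar is that of the negative interactions (12.4%) and the tallest kappaB bar that of the positive ones (6.7%).

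Interferon-stimulated antiviral effectors were lower in Ifnar1-/- cells treated with LPS. Of 40 effector genes tested, 36 were lower, 0 were higher and 4 were not called, with a median difference of -4.20 against 0.09 over all genes. In WT cells LPS raised 37 of the 40 and lowered 1 (median 2.61), and in Ifnar1-/- cells it raised 19 and lowered 4 (median 0.83). Already without LPS 35 of the 40 were lower in Ifnar1-/- cells, with a median of -3.01. The interaction was negative in 19, positive in 5 and not called in 16. These interaction counts varied between the alternatives, in which the list's median interaction was -1.97 to -1.40. The list was chosen for its known dependence on interferon, so its lower level is not independent evidence of a direction.

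Irf7, a transcription factor that amplifies interferon production, had a negative interaction. It read 12.38 and 12.82 on the untreated WT arrays, 15.72 and 15.49 on the WT LPS arrays, 6.75 and 7.03 on the untreated Ifnar1-/- arrays and 5.90 and 6.22 on the Ifnar1-/- LPS arrays. LPS raised it on both WT slides and lowered it on both Ifnar1-/- slides, without overlap. The difference under LPS was -9.55 ± 0.24 (748-fold lower, adjusted p = 1.78e-05, limma), and the interaction was -3.83 ± 0.34 (adjusted p = 0.00785).

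Rsad2, which encodes the antiviral enzyme viperin, read 12.12 and 12.19 untreated and 17.78 and 17.04 with LPS in WT cells, against 6.27 and 6.03 untreated and 7.13 and 6.93 with LPS in Ifnar1-/- cells. Its rise with LPS was 38.2-fold in WT cells, and in Ifnar1-/- cells its change of 0.88 was not called (adjusted p = 0.0623, limma). Ifit2, an RNA-binding inhibitor of viral translation, read 11.88 and 11.99 untreated and 16.52 and 15.53 with LPS in WT cells, then 6.01 and 6.21 untreated and 4.74 and 4.75 with LPS in Ifnar1-/- cells. On the Ifnar1-/- LPS arrays it was not well above background, and it was at least 2380-fold lower than on the WT LPS arrays (adjusted p = 2.05e-05, limma). Its neighbour Ifit3, whose promoter with an ISRE core is shown above, differed by -12.60 ± 0.38 with only 1 of the 2 Ifnar1-/- LPS arrays above background.

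The same pattern was seen in genes of several antiviral functions. Isg20, an exonuclease, rose 25.3-fold in WT cells and by 0.09 log2 in Ifnar1-/- cells (adjusted p = 0.839), and it was 204-fold lower under LPS. Cmpk2, a mitochondrial nucleotide kinase that lies beside Rsad2, differed by -10.01 ± 0.40 with an interaction of -5.05 ± 0.56. Ifi44 was not well above background on any Ifnar1-/- array and was at least 753-fold lower under LPS, while Eif2ak2, the RNA-activated kinase PKR, differed by -4.28 ± 0.20 with an interaction of -2.83 ± 0.28 (adjusted p = 0.0102). Bst2, which tethers virions to the cell surface, had an interaction of -1.65 (adjusted p = 0.0429) that was not called with the slide as a fixed block (0.0554).

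Oas3 and Oas2, which encode oligoadenylate synthetases, antiviral enzymes activated by double-stranded RNA, fell with LPS in Ifnar1-/- cells. Oas3 read 11.79 and 12.41 untreated and 13.97 and 14.26 with LPS in WT cells, but 9.23 and 9.15 untreated and 5.25 and 5.12 with LPS in Ifnar1-/- cells. It rose 4.05-fold in WT cells and fell 16.1-fold in Ifnar1-/- cells (adjusted p = 0.000194, limma), and only 1 of the 2 Ifnar1-/- LPS arrays was above background. Oas2 fell by less (-1.21, adjusted p = 0.0481), again with 1 of 2 LPS arrays above background, and differed by -10.48 ± 0.34 under LPS. Oas1b was not called by its brightest probe (-0.16, 95% confidence interval -0.64 to 0.31), and its other probes differed by up to -3.16.

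Some interferon genes were far lower in untreated Ifnar1-/- cells and were still raised by LPS, by more than in WT cells. Isg15, a ubiquitin-like modifier, read 15.52 and 15.19 untreated and 18.33 and 18.28 with LPS in WT cells, against 10.82 and 10.73 untreated and 17.64 and 17.44 with LPS in Ifnar1-/- cells. It rose 7.73-fold in WT and 109-fold in Ifnar1-/- cells, so that a 24-fold gap without LPS was a 1.7-fold gap with LPS. The interaction was 3.81 ± 0.27 (adjusted p = 0.00672), and the remaining difference of -0.77 (adjusted p = 0.0293) was lost in 8 of 18 alternatives, where it ranged from -1.29 to -0.67 and its adjusted p from 0.00617 to 0.514.

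Rtp4, a chaperone of membrane receptors that is interferon-inducible, had the largest positive interaction of the effectors, 6.52 ± 0.50 (adjusted p = 0.00719). Its values were 16.21 and 16.21 untreated and 17.34 and 17.40 with LPS in WT cells, and 5.02 and 6.12 untreated and 13.38 and 13.11 with LPS in Ifnar1-/- cells. LPS thus raised it 2.23-fold in WT and 205-fold in Ifnar1-/- cells, yet it was 17.4-fold lower under LPS. Oasl1, an OAS-like protein that restrains translation of Irf7, rose at least 213-fold in Ifnar1-/- cells from a level not well above background and differed by -5.31 ± 0.28 under LPS.

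Ifit1 gave another split within 1 gene family. It read 11.98 and 11.63 untreated and 16.55 and 15.55 with LPS in WT cells, and 2.02 and 1.98 untreated and 11.30 and 11.25 with LPS in Ifnar1-/- cells, where it rose at least 103-fold while Ifit2 fell below the measured range. Its untreated Ifnar1-/- arrays were not well above background, so its interaction of 5.03 rests on unmeasured values: it was 2.16 (adjusted p = 0.0679) with values under a common floor set to the floor and 0.99 (0.198) under normexp background correction, within a range of adjusted p from 0.00155 to 0.198 over its alternatives. Ifitm3, which blocks virus entry, had an interaction of 2.58 ± 0.27 and differed by -1.66 ± 0.19 under LPS. Mx1, a dynamin-like GTPase against influenza virus, rose at least 52.7-fold in Ifnar1-/- cells and differed by -6.47 ± 0.42. Its neighbours in function Ifitm1 (-0.92, 95% confidence interval -2.18 to 0.35) and Ifitm2 (-0.16, -0.64 to 0.32) were not called.

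**Figure D2:**
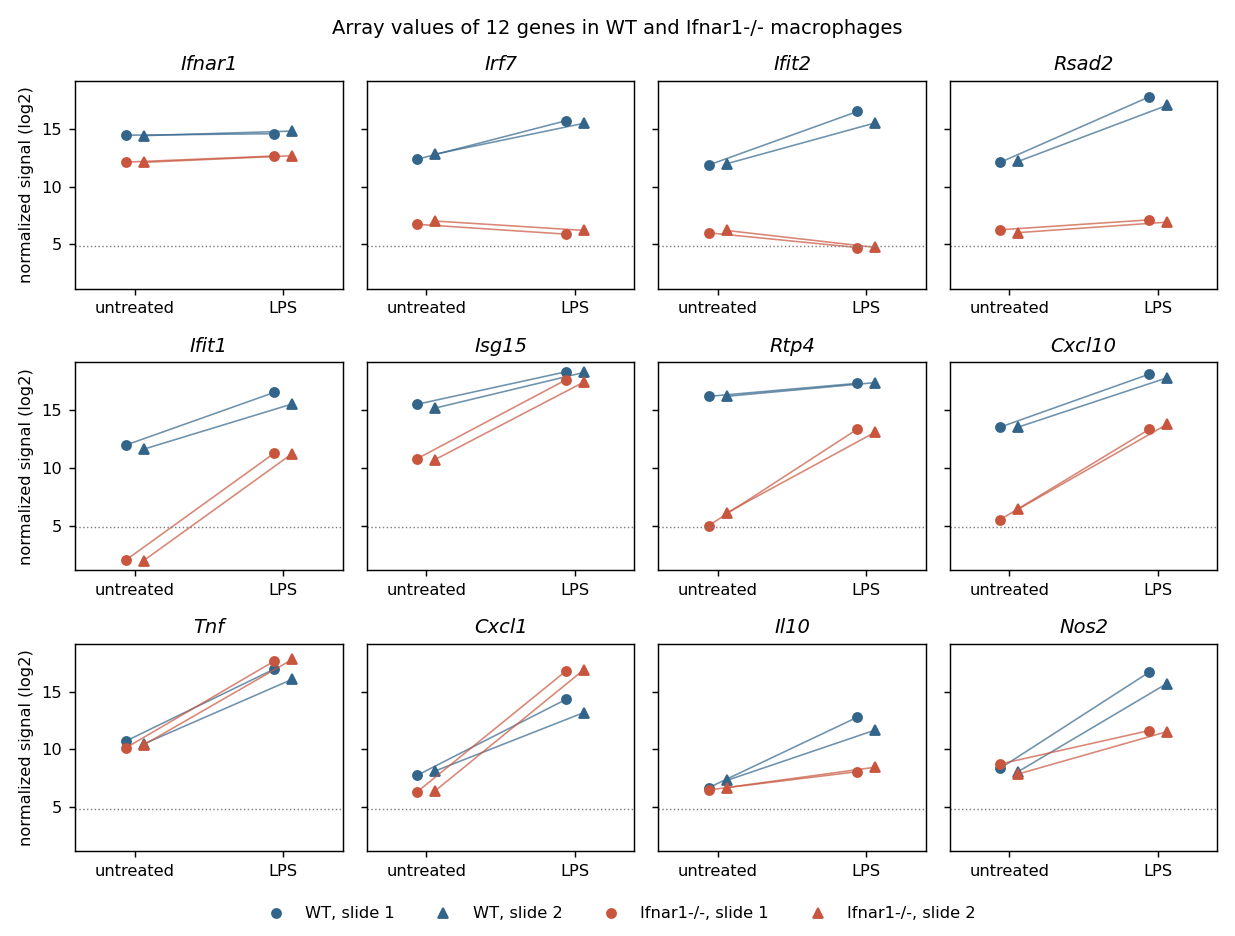
Normalized log2 intensity of 12 genes on each of the 8 arrays, untreated and with LPS, with WT and Ifnar1-/- arrays in different colours. Lines join the untreated and LPS array of 1 slide, circles are slide 1 and triangles slide 2 of each genotype, and the dotted line is the floor of 4.87, the highest of the lowest measured signals of the 8 arrays. Irf7, Ifit2 and Rsad2 climbed on the WT slides and stayed low on the Ifnar1-/- slides, Isg15 and Rtp4 climbed steeply from low untreated levels, and Cxcl1 ended higher in Ifnar1-/- cells (16.78 and 16.89).

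The interferon-inducible GTPases, which attack vacuoles that hold pathogens, were also lower. Of 17 tested, 15 were lower and 0 higher under LPS, against 9.85% and 15.5% of all genes, with a median of -4.36. LPS raised 16 of them in WT but 6 in Ifnar1-/- cells. All 9 of these genes with a promoter in the table held an ISRE core, the Igtp and Irgm1 stretches above among them. Igtp (Irgm3), an immunity-related GTPase, read 13.40 and 13.49 untreated and 17.23 and 16.69 with LPS in WT cells, and 11.21 and 11.38 untreated and 11.20 and 11.18 with LPS in Ifnar1-/- cells. It rose 11.4-fold in WT cells and did not differ with LPS beyond the spread in Ifnar1-/- cells (-0.10, adjusted p = 0.805, limma), with an interaction of -3.62 ± 0.31. Gvin1, a very large GTPase, was 199-fold lower and Irgm1 differed by -4.36 ± 0.22.

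Gbp2 and Gbp5, which encode guanylate-binding proteins of the same list, rose with LPS in both genotypes. Gbp2 read 13.14 and 13.08 untreated and 17.92 and 17.82 with LPS in WT cells, and 10.79 and 10.96 untreated and 17.13 and 17.21 with LPS in Ifnar1-/- cells. The gap under LPS was -0.70 ± 0.16 (adjusted p = 0.0254) and was lost in 8 of 18 alternatives, with adjusted p from 0.00669 to 0.69, while the interaction was 1.53 ± 0.23. Gbp5, which promotes inflammasome assembly, differed by -0.57 (95% confidence interval -1.08 to -0.06) and was not called. Its interaction of 2.27 was -0.38 by its other probe. Gbp2b differed by 0.78 (0.11 to 1.45) and was not called.

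Sensors of foreign nucleic acid were lower as a group, 12 of 16 lower and 0 higher under LPS (median -1.54). Of all genes 9.85% were lower and 15.5% higher. Ddx58 (RIG-I), the sensor of viral RNA ends, differed by -5.41 ± 0.18 and rose with LPS in WT cells (2.54) but not detectably in Ifnar1-/- cells (0.34, adjusted p = 0.241). Tlr3, the endosomal receptor for double-stranded RNA, followed with a difference of -4.88 ± 0.44 and an interaction of -4.06 ± 0.63. Ifih1 (MDA5) was lower by -2.16 ± 0.23 but rose with LPS by 3.44 in WT and 3.36 in Ifnar1-/- cells, with an interaction of -0.09 (adjusted p = 0.923) that was -1.43 by its other probe. Cgas, the DNA sensor, differed by -2.01 ± 0.19 with an interaction of -1.50, and its adaptor Sting1 by -1.23 ± 0.24, with LPS lowering Sting1 in both genotypes. Mavs, the adaptor of the RNA sensors, differed by -0.04 and was not called.

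Among the factors that carry the interferon signal, 8 of 14 JAK-STAT and IRF genes were lower and 1, Irf4, was higher. The shares of all genes were 9.85% lower and 15.5% higher. Stat2 read 13.85 and 13.79 untreated and 15.36 and 15.43 with LPS in WT cells, and 11.28 and 11.81 untreated and 10.69 and 11.31 with LPS in Ifnar1-/- cells. It was 21-fold lower under LPS, and its interaction was -2.12 ± 0.39 (adjusted p = 0.0386). Irf9, the DNA-binding part of ISGF3, was 10.4-fold lower under LPS and lower by about as much without LPS (-2.85), with no called response to LPS in either genotype. Stat3 differed by -2.07 ± 0.23, without a called interaction. Irf3, which acts upstream of interferon beta, differed by 0.01 (95% confidence interval -0.59 to 0.62), and Irf1, an interferon gamma-responsive factor, by -0.41 (-0.97 to 0.16). Jak2 differed by -0.59 (adjusted p = 0.0404), a call lost in 11 of 18 alternatives with adjusted p from 0.00795 to 0.262.

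Feedback inhibitors of cytokine signalling moved apart. Usp18, which removes ISG15 from proteins and blocks IFNAR2, was 1170-fold lower under LPS, with 16.91 and 16.36 on the WT LPS arrays and 6.33 and 6.56 on the Ifnar1-/- ones. Socs2, an inhibitor of growth hormone and related receptors, went the other way: it read 6.39 and 6.66 untreated and 5.66 and 5.68 with LPS in WT cells, against 6.59 and 6.29 untreated and 8.92 and 9.25 with LPS in Ifnar1-/- cells. LPS lowered it on both WT slides and raised it on both Ifnar1-/- slides, and it was 10.7-fold higher under LPS (adjusted p = 0.000323, limma). Cish, a STAT5 target of the same family, was higher by 2.73 ± 0.38 and rose with LPS by 2.34 in WT and 5.75 in Ifnar1-/- cells (interaction adjusted p = 0.0247). Socs1 (0.54, 95% confidence interval -0.21 to 1.28) and Socs3 (-0.29, -0.88 to 0.30) were not called under LPS, and Socs3 rose more in Ifnar1-/- cells from a lower untreated level (interaction 2.08 ± 0.35). Of the 9 feedback genes 2 were higher and 3 lower under LPS, against 15.5% and 9.85% of all genes. The interaction was positive in 4 and negative in 1, against 1.71% and 2.78% of all genes.

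**Figure D3:**
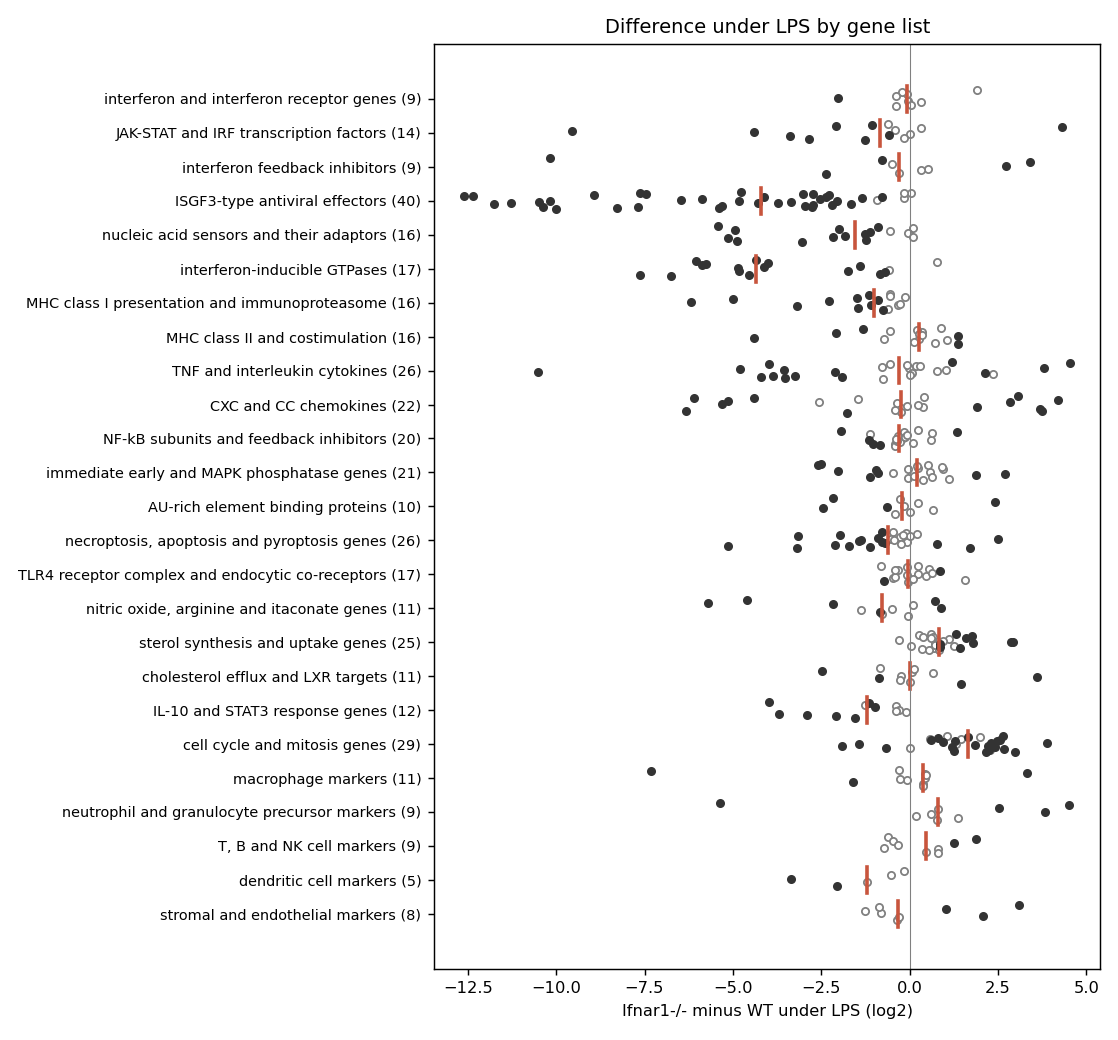
Difference between Ifnar1-/- and WT cells under LPS (log2) for every gene tested in each list, 1 row a list. Filled points were called and open points were not, and the red bar is the list's median. Effectors, GTPases and nucleic acid sensors lie mostly left of 0, cell cycle and sterol genes mostly right, and NF-kB and TLR4 genes close to 0.

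Under LPS the inflammatory genes downstream of NF-kB did not differ between the genotypes as a block. All 20 NF-kB subunits and feedback inhibitors rose with LPS in both genotypes (median 2.21 in WT and 2.81 in Ifnar1-/- cells). Under LPS 1 of them was called higher and 4 lower in Ifnar1-/- cells, against 15.5% and 9.85% of all genes, with a median of -0.31. Without LPS all 20 were lower in Ifnar1-/- cells by sign, 8 of them called (median -0.87). The interaction was above 0 in 16 and below 0 in 4, with a median of 0.83 against 0.08 over all genes, and it was called for 1. This count varied between the alternatives, in which the median was 0.63 to 1.08. Nfkbia, the inhibitor of NF-kB that the factor itself induces, read 17.61 and 17.55 on the WT LPS arrays and 17.26 and 17.59 on the Ifnar1-/- ones (-0.15, 95% confidence interval -0.62 to 0.31). Tnfaip3 (A20), a deubiquitinase that ends the signal, was lower by -1.04 ± 0.19, and Icam1, an adhesion molecule, was higher by 1.35 ± 0.22 with an interaction of 1.92 ± 0.31.

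Chemokines that attract neutrophils were higher in Ifnar1-/- cells. Cxcl1 read 7.76 and 8.13 untreated and 14.33 and 13.19 with LPS in WT cells, against 6.32 and 6.41 untreated and 16.78 and 16.89 with LPS in Ifnar1-/- cells. Both Ifnar1-/- LPS arrays lay above both WT LPS arrays, although the untreated Ifnar1-/- arrays were the lowest. It was 8.46-fold higher under LPS (3.08 ± 0.37, adjusted p = 0.0028, limma), and its LPS response was 25.2-fold larger (interaction 4.66 ± 0.52, adjusted p = 0.0118).

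Cxcl2 and Cxcl3, the neighbours of Cxcl1 with the same kappaB core, followed it. Cxcl2 read 15.09 and 13.87 on the WT LPS arrays and 16.42 and 16.39 on the Ifnar1-/- LPS arrays, a 3.78-fold difference (adjusted p = 0.0152), with an interaction of 4.19 ± 0.54. Cxcl3 was not well above background in untreated Ifnar1-/- cells and rose at least 7910-fold with LPS, to 17.48 and 17.58, against 14.26 and 12.41 in WT cells. Its interaction of 5.19 (adjusted p = 0.0461) was 4.20 (0.0525) with values under a common floor set to the floor, and its adjusted p ranged from 0.00825 to 0.532 over its alternatives. With all 32 arrays of the series in 1 fit, the differences under LPS were not called for Cxcl1 (adjusted p = 0.131), Cxcl2 (0.369) or Cxcl3 (0.239), where their adjusted p over all alternatives started at 0.000224 for Cxcl1 and 0.00349 for Cxcl2. Cxcl5, of the same family, was higher by 3.74 ± 0.48.

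Ccl17 and Ccl22, ligands of CCR4 on T cells, were also higher, by 3.69 ± 0.39 and 2.83 ± 0.38, with interactions of 3.08 (adjusted p = 0.0347) and 2.93 (0.0389). Ccl7, Ccl8 and Ccl12, which attract monocytes, were lower in Ifnar1-/- cells under LPS. Ccl7 read 7.25 and 7.42 untreated and 16.61 and 14.74 with LPS in WT cells, and 8.90 and 9.84 untreated and 10.17 and 10.91 with LPS in Ifnar1-/- cells. It rose 325-fold in WT cells, while the change of 1.17 in Ifnar1-/- cells was not called (adjusted p = 0.256, limma), and it was 35.1-fold lower under LPS. Ccl8 was 79.6-fold lower and Ccl12 lower by -6.09 ± 0.57, both on the same stretch of chromosome 11 as Ccl7. The Ccl12 interaction of -4.19 (adjusted p = 0.0426) was not called with the slide as a fixed block (0.0585). Ccl2 was not called under LPS (-1.46, 95% confidence interval -2.60 to -0.33), though its interaction was (-4.23 ± 0.67).

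The CXCR3 ligands, which draw activated T cells, were both lower under LPS. Cxcl9 differed by -5.30 ± 0.24 and its LPS response was smaller (interaction -3.65 ± 0.34). Cxcl10, with an ISRE and a kappaB core in its promoter, read 13.55 and 13.55 untreated and 18.12 and 17.81 with LPS in WT cells, against 5.54 and 6.44 untreated and 13.35 and 13.78 with LPS in Ifnar1-/- cells. It was 21.1-fold lower under LPS and rose 21.4-fold in WT and 191-fold in Ifnar1-/- cells by this probe. Its second probe gave an interaction of -3.51 against 3.15 for the first, so the size and direction of its interaction depend on the probe. Ccl5 (0.42, 95% confidence interval -0.82 to 1.66) and Ccl3 (-0.41, -1.23 to 0.42) were not called. Over all 22 chemokines 6 were higher and 6 lower under LPS, against 15.5% and 9.85% of all genes. The interaction was positive in 7 and negative in 5, against 1.71% and 2.78% of all genes. These interaction counts varied between the alternatives, in which the list's median interaction was -0.18 to 0.31.

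The cytokine list held 4 genes called higher and 10 called lower of 26 under LPS, with a median of -0.31. Over all genes 15.5% were called higher and 9.85% lower, so the count of higher cytokine genes is near the share of all genes. Il10, the main anti-inflammatory cytokine of macrophages, read 6.69 and 7.31 untreated and 12.79 and 11.68 with LPS in WT cells, and 6.49 and 6.69 untreated and 8.07 and 8.46 with LPS in Ifnar1-/- cells. LPS raised it on all 4 slides, by 37.6-fold in WT and 3.18-fold in Ifnar1-/- cells, and it was 15.7-fold lower under LPS (-3.97 ± 0.41, adjusted p = 0.00166). Its interaction was -3.56 ± 0.57 (adjusted p = 0.0265, and 0.0507 with the slide as a fixed block). Il19, a cytokine of the same family, was 27.8-fold lower, and Il1rn, the natural antagonist of interleukin 1, was lower by -1.91 ± 0.25 although it was higher before LPS (2.75, adjusted p = 0.003).

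Several other secreted ligands were also lower. Tnfsf10 (TRAIL), a death receptor ligand, was not well above background on any Ifnar1-/- array and was at least 215-fold lower under LPS. The interaction of -5.43 for Tnfsf10 (adjusted p = 0.041) was 0.0521 with the slide as a fixed block. Edn1, which encodes the vasoconstrictor endothelin 1, was 11.7-fold lower, with 14.09 and 13.14 on the WT LPS arrays and 9.87 and 10.26 on the Ifnar1-/- ones. Il15, which supports NK cells, differed by -3.53 ± 0.81, with wide groups at 13.88 and 12.31 on the WT LPS arrays and 8.64 and 10.49 on the Ifnar1-/- ones.

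Tnf read 10.71 and 10.46 untreated and 16.96 and 16.07 with LPS in WT cells, and 10.12 and 10.38 untreated and 17.65 and 17.79 with LPS in Ifnar1-/- cells. The Ifnar1-/- LPS arrays were both higher than the WT ones, by less than a log2 unit from the nearest. The difference was 1.20 ± 0.31 (2.3-fold, adjusted p = 0.0349, limma). That call was lost in 11 of 18 alternatives, where the difference ranged from 0.75 to 1.63 and the adjusted p from 0.0112 to 0.471. It was 0.78 (adjusted p = 0.145) with the arrays shifted to a common 75th percentile and 0.75 (0.0521) without WT LPS replicate 2. The interaction of 1.54 was not called (adjusted p = 0.116).

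Interleukin 1 genes differed from each other. Il1a was higher by 2.13 ± 0.50 (adjusted p = 0.0267), at 15.12 and 15.24 against 13.33 and 12.77 on the WT LPS arrays, a call lost in 8 of 17 alternatives with adjusted p from 0.000317 to 0.354, among them the slide as a random block (0.0504). Il1b was not called under LPS (0.17, 95% confidence interval -0.71 to 1.06), but LPS raised it from a lower untreated level in Ifnar1-/- cells, by 10.48 against 7.14 in WT cells (interaction adjusted p = 0.0243). Il6 (1.03, -0.03 to 2.09) and Il12b (-0.03, -1.53 to 1.47) were not called, and the WT LPS arrays of Il12b lay apart at 15.47 and 13.35. Without WT LPS replicate 1 Il12b was higher in Ifnar1-/- cells by 1.02 (adjusted p = 0.0351), within a range of adjusted p from 0.0215 to 1 over its alternatives.

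A pair of cytokine genes was raised mainly in Ifnar1-/- cells. Csf2 (GM-CSF) read 2.45 and 2.76 untreated and 5.19 and 4.95 with LPS in WT cells, against 2.71 and 2.71 untreated and 8.40 and 9.35 with LPS in Ifnar1-/- cells, a 14-fold difference (adjusted p = 0.000912, limma). Il23a, the specific subunit of interleukin 23, was not well above background on either WT LPS array (3.42 and 4.16) and read 8.18 and 8.49 on the Ifnar1-/- LPS arrays, at least 20.3-fold higher (adjusted p = 0.00315). It was above background on both arrays in the Ifnar1-/- LPS group only, and it thus entered the test through the group where it is high. Its interaction of 4.10 (adjusted p = 0.0443) was not called with the slide as a fixed block (0.0587).

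Ifnb1 was raised by LPS in both genotypes. It read 4.46 and 5.59 untreated and 10.62 and 9.23 with LPS in WT cells, and 3.13 and 2.44 untreated and 11.75 and 11.90 with LPS in Ifnar1-/- cells. Both Ifnar1-/- LPS arrays were the higher ones, but the difference of 1.90 ± 0.56 (95% confidence interval 0.55 to 3.25) just missed the threshold (adjusted p = 0.0518, limma). It was called in 8 of 18 alternatives, with adjusted p from 0.00813 to 0.202. Its interaction was 4.14 ± 0.79 (adjusted p = 0.0425, 0.0754 with the slide as a fixed block), from untreated Ifnar1-/- arrays that were not well above background.

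Enzymes with antimicrobial or lipid-signal products were split as well. Nos2, the inducible nitric oxide synthase, read 8.37 and 8.07 untreated and 16.68 and 15.70 with LPS in WT cells, and 8.74 and 7.87 untreated and 11.63 and 11.53 with LPS in Ifnar1-/- cells. Untreated arrays overlapped and LPS arrays did not, and it was 24.4-fold lower under LPS (adjusted p = 0.001) with a rise of 250-fold in WT and 9.7-fold in Ifnar1-/- cells. Ch25h, which makes the antiviral sterol 25-hydroxycholesterol, was 51.9-fold lower. Acod1, which makes itaconate, reached 18.30 and 18.17 in WT and 18.29 and 18.39 in Ifnar1-/- cells, from untreated levels of 12.77 and 11.05 against 7.41 and 7.71 (interaction 4.46 ± 0.72). Ptgs2 (cyclooxygenase 2) was not called (-0.06, 95% confidence interval -1.23 to 1.12).

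**Figure D4:**
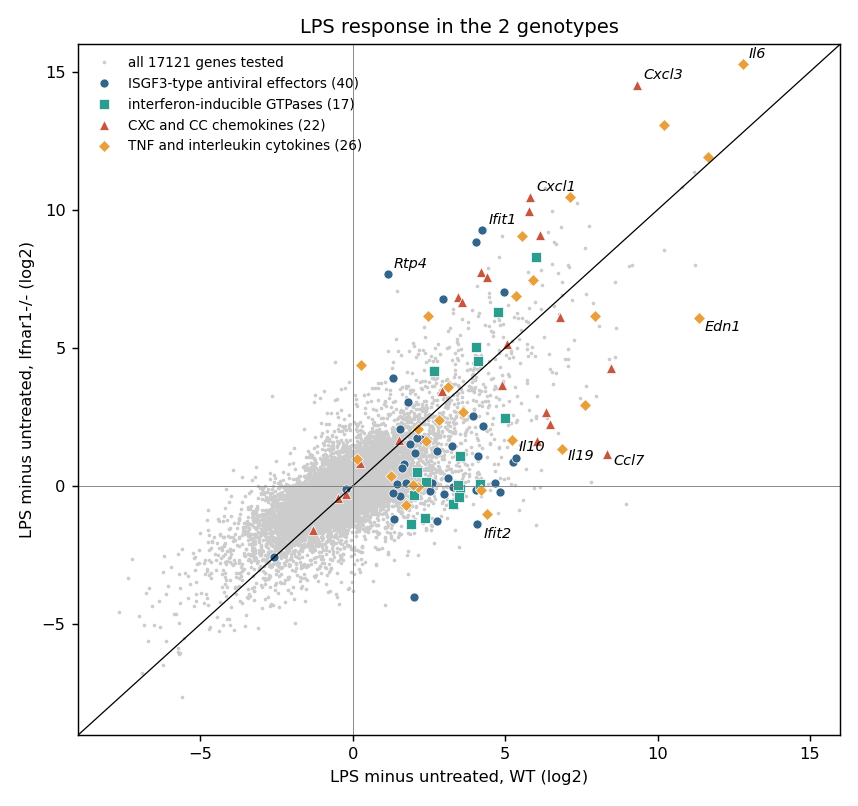
LPS response (LPS minus untreated, log2) in WT cells on the x axis and in Ifnar1-/- cells on the y axis. All 17121 genes are in grey, and antiviral effectors, GTPases, chemokines and cytokines are in colour. The diagonal is an equal response. Chemokines and cytokines lie on both sides of it, many effectors and GTPases lie near 0 on the y axis, and a few effectors lie well above the diagonal.

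Genes that dampen cytokine output were compared next, since the study examined how interferon signalling bears on TNF. Zfp36 (tristetraprolin), which binds AU-rich elements and speeds decay of cytokine mRNA, read 10.65 and 10.62 untreated and 13.85 and 12.49 with LPS in WT cells, and 11.24 and 10.12 untreated and 11.13 and 10.86 with LPS in Ifnar1-/- cells. It rose 5.79-fold in WT cells, the change of 0.32 in Ifnar1-/- cells was not called (adjusted p = 0.735, limma), and it was 4.52-fold lower under LPS (adjusted p = 0.0275). The interaction of -2.22 was not called (adjusted p = 0.161). The call under LPS was lost in 4 of 18 alternatives (adjusted p from 0.00663 to 0.128), which were the fit of only the 4 LPS arrays (0.0622) and those without WT LPS replicate 1 (-1.48, 0.0938), Ifnar1-/- LPS replicate 1 (0.091) or Ifnar1-/- LPS replicate 2 (0.128).

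Its relatives differed. Zfp36l1 was lower by -2.46 ± 0.31 and fell with LPS in both genotypes, and Zfp36l2 was higher by 2.43 ± 0.39 and fell with LPS by 4.01 in WT and by 1.51 in Ifnar1-/- cells. Of 10 AU-rich element binding proteins 1 was higher and 3 lower under LPS, and no interaction was called by limma, with 1 the highest count in any alternative. Among all genes 15.5% were called higher and 9.85% lower under LPS. Mapkapk2, the kinase that phosphorylates tristetraprolin, was not called (0.20, 95% confidence interval -0.30 to 0.71). Dusp1, a phosphatase that switches off p38 MAP kinase, was lower by -2.03 ± 0.40, with an interaction of -3.50 ± 0.57, and Dusp2, a phosphatase of ERK, was lower by -2.59 ± 0.36. Egr2 was higher by 2.69 ± 0.20, by about as much as without LPS (2.58). The IL-10 and STAT3 response genes had 7 of 12 lower and 0 higher (median -1.20), with Il4ra, the interleukin 4 receptor chain, at -3.71 ± 0.19 and Slamf1 at -2.91 ± 0.35.

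Of 26 cell death genes 13 were lower, 3 were higher and 10 were not called under LPS (median -0.60). Over all genes 9.85% were called lower and 15.5% higher. Mlkl, the executioner of necroptosis, read 11.26 and 10.64 untreated and 14.54 and 14.09 with LPS in WT cells, and 10.01 and 10.15 untreated and 11.11 and 11.21 with LPS in Ifnar1-/- cells. It was raised on all 4 slides, by 10.3-fold in WT and 2.11-fold in Ifnar1-/- cells, and was 8.91-fold lower under LPS (interaction -2.29 ± 0.37, adjusted p = 0.028, limma). Zbp1, a nucleic acid sensor that can start necroptosis, was 35.3-fold lower, yet it rose 11.7-fold in WT and 11.4-fold in Ifnar1-/- cells. The kinases Ripk1 (-0.46, 95% confidence interval -0.93 to 0.00) and Ripk3 (-0.09, -0.70 to 0.53) were not called. Casp8 was lower by -1.38 ± 0.22, Casp1 by -1.43 ± 0.16 and Casp4 (caspase 11), the sensor of LPS in the cytosol, by -2.11 ± 0.17. Daxx, a regulator of apoptosis and transcription, differed by -3.19 ± 0.29. Cyld, the deubiquitinase of RIPK1, was higher by 1.72 ± 0.26. LPS lowered Cyld in WT cells (-2.37), and its change in Ifnar1-/- cells was not called (-0.41). The other probe of Cyld differed by 0.17 under LPS, with an interaction of 0.51 against 1.95.

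For antigen presentation, the class I pathway was lower in 10 of 16 genes and higher in 0 (median -0.999). Nlrc5, the activator of class I genes, was 32.1-fold lower, at 15.30 and 14.92 on the WT LPS arrays and 10.16 and 10.06 on the Ifnar1-/- ones. Tap1, the peptide transporter, differed by -3.18 ± 0.31 and Psmb9, an immunoproteasome subunit, by -2.27 ± 0.23, while the class I molecules B2m (-0.54, 95% confidence interval -0.94 to -0.14) and H2-K1 (-0.56, adjusted p = 0.0643) were not called. The non-classical gene H2-T24 differed by -6.18 ± 0.21. In the class II and costimulation list 2 of 16 were higher and 3 lower, against 15.5% and 9.85% of all genes. Cd86 was 21.4-fold lower and rose with LPS only in WT cells by limma (2.53, against -0.24 with adjusted p = 0.622, interaction -2.77 ± 0.41). Its partner Cd80 was higher by 1.37 ± 0.17, with an interaction of 1.61 that was -0.18 by its other probe. Cd40, a receptor for T-cell help, was not called under LPS (0.26, -0.29 to 0.82), and its interaction of 1.98 (adjusted p = 0.0283) was 0.051 with the slide as a fixed block.

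The naming rule, for genes with an established symbol, took the 12 lowest and 12 highest interactions among genes called in the same direction under LPS and in the interaction, with LPS arrays that did not overlap. It was met by 377 lower and 235 higher genes. The lowest was Lipg, an endothelial lipase, at 2.02 and 2.20 untreated and 11.22 and 10.93 with LPS in WT cells and 3.22 and 1.95 untreated and 1.97 and 1.94 with LPS in Ifnar1-/- cells. It was above background only on the WT LPS arrays of the 4 groups, at least 80.6-fold over Ifnar1-/- cells, and it thus entered the test through the group where it is high. Slfn4, a myeloid schlafen gene, was at least 242-fold lower, with 12.34 and 12.99 on the WT LPS arrays.

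Lhx2, a LIM homeobox factor, read 6.82 and 6.34 untreated and 13.17 and 12.04 with LPS in WT cells, and 6.42 and 6.64 untreated and 5.13 and 5.14 with LPS in Ifnar1-/- cells. The untreated arrays of the genotypes overlapped, LPS raised it 65.2-fold in WT cells and lowered it 2.63-fold in Ifnar1-/- cells, and it was 177-fold lower under LPS (adjusted p = 0.00017, limma). Slc28a2 and Slc28a2b, nucleoside transporter genes that are near-identical copies and so may share signal, were lower by -5.60 ± 0.26 and -5.53 ± 0.32, and both had untreated levels that were not called between the genotypes. Ifi209 and Ifi214, of the interferon-inducible p200 family on chromosome 1, differed by 1140-fold and by at least 110-fold. Zfp618, Ddx4 (a germ cell helicase, at least 19.5-fold), Angpt1 (angiopoietin 1, at least 7.9-fold), Ccl7 and Oas3 made up the rest, and the Angpt1 interaction of -6.31 (adjusted p = 0.0367) was 0.0683 with the slide as a fixed block. Angpt1 was above background on both arrays in the WT LPS group only and so entered the test through it, and its difference under LPS was not called without either WT LPS array or without Ifnar1-/- LPS replicate 1 (adjusted p from 0.00168 to 0.102 over 16 alternatives). Zfp618 differed by -2.77 ± 0.67 (adjusted p = 0.0287, limma), a call lost in 6 of 18 alternatives, in which adjusted p ranged from 0.00526 to 0.128. Its other probes differed by -0.39 and -1.64 under LPS, with interactions of -0.03 and -2.01 against -5.72.

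On the positive side, several genes were lowered by LPS in WT cells and less or not at all without the receptor. Irf4, a transcription factor of alternatively activated macrophages, read 8.20 and 8.99 untreated and 4.31 and 5.04 with LPS in WT cells, and 8.12 and 8.63 untreated and 8.72 and 9.23 with LPS in Ifnar1-/- cells. It fell 15.1-fold in WT cells, the change of 0.60 in Ifnar1-/- cells was not called (adjusted p = 0.34, limma), and it was 19.7-fold higher under LPS. Hey1, a Notch target, fell 27-fold in WT cells and was 16.9-fold higher under LPS, and Zfp704 fell in both genotypes, to a level not well above background in WT cells, and was at least 8.57-fold higher. Cebpa, a myeloid lineage factor of the macrophage list, fell 16.7-fold in WT and 2.96-fold in Ifnar1-/- cells and was 10-fold higher under LPS.

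Others were raised by LPS in Ifnar1-/- cells and not in WT cells. Spns2, the exporter of sphingosine-1-phosphate, read 5.70 and 7.17 untreated and 3.66 and 3.91 with LPS in WT cells, and 5.39 and 5.09 untreated and 8.50 and 8.49 with LPS in Ifnar1-/- cells, at least 22.7-fold higher under LPS (adjusted p = 0.00131, limma). Stxbp6, a SNARE-binding protein, rose at least 15.9-fold in Ifnar1-/- cells and was not called in WT cells (-0.57, adjusted p = 0.213). Slc6a9, a glycine transporter, differed by 2.20 ± 0.42, Aox1, aldehyde oxidase, by at least 5.05-fold and Samd5 by 2.56 ± 0.49 with 1 of 2 WT LPS arrays above background. With values under a common floor set to the floor, the interactions of Aox1 (1.78, adjusted p = 0.0647) and Samd5 (2.46, 0.0501) were not called, where their main values were 4.55 (0.0292) and 3.91 (0.035). Over all their alternatives the adjusted p ranged from 0.00578 to 0.115 for Aox1 and from 0.00652 to 0.123 for Samd5.

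**Figure D5:**
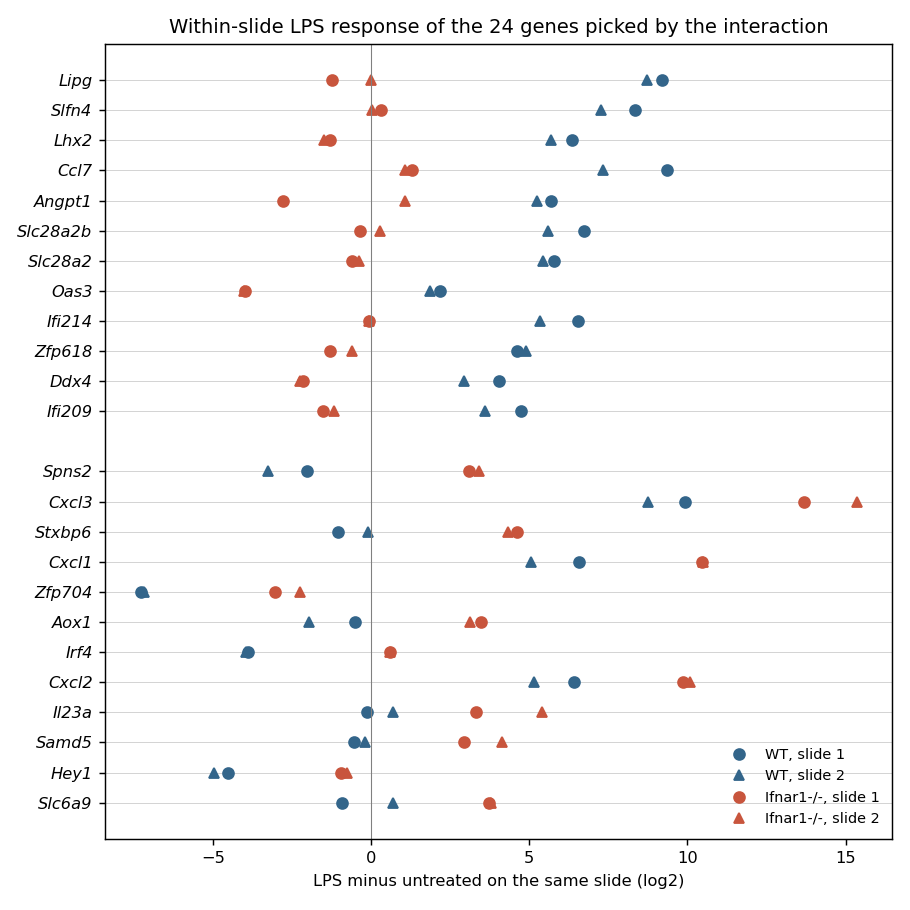
LPS response on each slide (LPS minus untreated array of that slide, log2) for the 24 genes of the naming rule, with WT and Ifnar1-/- slides in different colours. The responses of the genotypes overlapped for none of the 24, which the rule's own choice favours: Lhx2 rose by 6.36 and 5.70 on the WT slides and changed by -1.29 and -1.50 on the Ifnar1-/- slides.

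Fcgr1, the high-affinity IgG receptor and a macrophage marker, was far lower in Ifnar1-/- cells under LPS. It read 14.11 and 14.32 untreated and 15.84 and 16.21 with LPS in WT cells, and 11.65 and 12.07 untreated and 8.31 and 9.08 with LPS in Ifnar1-/- cells. LPS raised it 3.5-fold in WT and lowered it 8.99-fold in Ifnar1-/- cells, and it was 161-fold lower under LPS (adjusted p = 9.76e-05, limma). Of the 11 macrophage markers 2 were lower and 1 higher under LPS, against 9.85% and 15.5% of all genes. Cebpa, described above, went the other way from Fcgr1 (3.33 under LPS, interaction 2.5). Adgre1 (F4/80, -0.29, 95% confidence interval -0.71 to 0.12) and Cd68 (0.43, 0.02 to 0.85) were not called.

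Some differences under LPS were there without LPS and had no called interaction. Of 29 cell cycle genes 19 were higher and 3 lower under LPS (median 1.64), and 13 were higher and 0 lower without LPS (median 1.77). The 19 higher genes under LPS became 7 to 22 over the alternatives, with 12 without WT LPS replicate 2, 8 without Ifnar1-/- LPS replicate 1 and 7 without Ifnar1-/- LPS replicate 2. The interaction was called for 1 of them, Ccnd1 (cyclin D1), with a median of 0.01. Rrm2, a subunit of ribonucleotide reductase, read 10.53 and 10.22 untreated and 7.59 and 7.05 with LPS in WT cells, and 13.24 and 13.44 untreated and 10.20 and 10.38 with LPS in Ifnar1-/- cells. LPS lowered it by 8.33-fold in WT and 8.27-fold in Ifnar1-/- cells, so the 7.85-fold gap under LPS was nearly that without it (7.8-fold). Mcm2, of the DNA helicase, was higher by 2.63 ± 0.30 and Cdk1 by 2.47 ± 0.38, though the probes of Cdk1 ranged from -0.26 to 2.77. In such a gap, present with and without LPS, slide and genotype cannot be told apart. Markers of neutrophils and their precursors moved the same way: 3 of 9 tested were higher and 1 lower under LPS, against 15.5% and 9.85% of all genes. Their summed intensity was 33200 and 56700 on the WT LPS arrays and 113000 and 110000 on the Ifnar1-/- ones. It was higher without LPS too (log2 ratio 1.29, and 1.36 with LPS). Ngp, a granule protein of neutrophil precursors, differed by 4.50 ± 0.79 and S100a9 by 2.53 ± 0.72 (adjusted p = 0.0476). Collagen genes Col1a1 (3.08 ± 0.89) and Col1a2 (2.07 ± 0.48), of the stromal list, were also higher. In that list 3 of 8 tested were called higher, while the other 5 were lower by sign and not called (median -0.33). Of the 10 stromal markers 2 (Pdgfra and Epcam) were not above background on both arrays of any group. The summed stromal level was 13900 and 7840 on the WT LPS arrays and 14200 and 8620 on the Ifnar1-/- ones. Dendritic cell markers, of which 2 of 5 tested were lower (9.85% over all genes), summed to 202000 and 233000 in WT and 75600 and 56300 in Ifnar1-/- cells. Bst2, itself an interferon-stimulated gene, is 1 of the 5 and gave a large part of the WT sums. It read 16.90 and 17.33 on the WT LPS arrays and 13.71 and 13.81 on the Ifnar1-/- ones. All 5 were lower by sign, but most of the drop in the sum lies in Bst2. The part of these other cells in the results above was not tested.

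Sterol synthesis genes were higher in 9 of 25 and lower in 0 under LPS (median 0.84), against 15.5% and 9.85% of all genes, with 1 called interaction. The count of 9 ranged from 2 to 12 over the alternatives, and was 2 or 3 without one or the other Ifnar1-/- LPS array and 5 without WT LPS replicate 1 or either untreated Ifnar1-/- array. Mvd, an enzyme of the mevalonate pathway, read 11.66 and 10.92 untreated and 10.63 and 11.25 with LPS in WT cells, and 11.55 and 11.88 untreated and 13.76 and 14.00 with LPS in Ifnar1-/- cells. Untreated arrays of the genotypes overlapped and LPS arrays did not, with a 7.67-fold difference (adjusted p = 0.00233, limma) and an interaction of 2.51 (adjusted p = 0.0402) that was 0.0633 with the slide as a fixed block. Dhcr7, the last enzyme of cholesterol synthesis, was higher by 2.86 ± 0.32.

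The genes near Ifnar1 were also counted. Of 83 genes tested within 5 Mb of its probe on chromosome 16, 17 (20.5%) were called under LPS, against 25.3% of all genes, and 5 (6.02%) without LPS, against 7.11%. Besides Ifnar1, those called in both were Cfap298 (2.41 ± 0.19 under LPS, 1.15 without), Morc3 (-1.29 ± 0.16 and -0.75) and Get1 (1.42 ± 0.16 and 1.29). The interaction was called for 1 gene there, Cbr3 (carbonyl reductase 3), which fell with LPS by 3.09 in WT cells and by 0.45 in Ifnar1-/- cells (not called, adjusted p = 0.113), an interaction of 2.65 ± 0.24.

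Of 156 genes followed one by one, 119 were called under LPS, and 92 of these were called with each of the 8 arrays left out in turn, and 96 was the lowest count for any 1 array left out (either Ifnar1-/- LPS array). The interaction was less stable. Of 91 such genes with a called interaction, 22 were called whichever array was left out, among them Irf7, Ifit2, Rsad2, Rtp4, Isg20, Igtp, Il1rn, Socs2, Lhx2 and Fcgr1, and between 24 (without Ifnar1-/- LPS replicate 1) and 87 (without WT LPS replicate 2) in each single case. With the slide as a random block all 91 were called and with the slide as a fixed block 82 were.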

How the data were processed

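The members and gene lists were chosen with earlier results of these data known. RNA of each sample was hybridized to an Agilent mouse 8x60K array in 1 colour (Cy3). The deposited intensity values are scanner output of Feature Extraction 11.5.1.1, background-subtracted within each array per the file headers (probe coordinates mm9). The authors' processed table, deposited on the log2 scale and normalized by them (limma, version not given in the sources used here), served as an alternative. Control and outlier spots were left out. The log2 processed intensities of 8 arrays (4 groups of 2) were quantile-normalized and fitted with limma 3.58.1 in R 4.3.3, with a mean for each group, 4 residual degrees of freedom and prior degrees of freedom of 2.4. Of 55681 probes, 31378 had a symbol through RefSeq accessions, file symbols or synonyms, and 23384 were well above background on both arrays of at least 1 group. The brightest probe stood for each of 17121 genes, and p-values were adjusted by Benjamini-Hochberg. The fit was tested on simulated data. Confidence intervals cover 95%.

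Named genes were Ifnar1, the 12 lowest and 12 highest interactions among genes with an established symbol that were called in the same direction under LPS and by the interaction with LPS arrays that did not overlap, list members that carry the roles described, genes the study discusses, and neighbours of Ifnar1. Deviations from group means correlated by 0.415 (WT) and 0.361 (Ifnar1-/-) between arrays of 1 slide. Between the WT and Ifnar1-/- LPS arrays of replicate 1, on different slides, the correlation was 0.161. Replicate numbers were thus taken to pair arrays within a genotype. Alternatives were a 75th percentile shift, normexp (offset 50), no filter, the methods' filter (50% of arrays), all 32 arrays, the 4 LPS arrays, mean of probes, the authors' table, slide blocks, a floor and leaving out each array. Arrays of other treatments were not used otherwise. Depth does not apply to arrays, whose number limits the precision. Some genes of the lists are not reported here by name.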

Additional observations from a re-analysis of the deposited data

Results flagged for a closer look

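The LPS response differed between the genotypes, by the tested interaction in limma, for 768 genes. Groups of 2 arrays are too small to test for an outlying array. Of the genes described above, 29 are listed here for a smaller or downward response in Ifnar1-/- cells and 29 for a larger one, each with the LPS response in Ifnar1-/- minus that in WT cells on the log2 scale. The lowest were Lipg (-9.6), Slfn4 (-7.64), Lhx2 (-7.42), Ccl7 (-7.17), Angpt1 (-6.31), Slc28a2b (-6.21), Slc28a2 (-6.08), Oas3 (-6.02), Ifi214 (-6.01) and Zfp618 (-5.72). Next came Ddx4 (-5.68), Ifi209 (-5.52), Il19 (-5.5), Ifit2 (-5.45), Fcgr1 (-4.98), Nos2 (-4.69), Il1rn (-4.66), Isg20 (-4.57), Rsad2 (-4.37) and Irf7 (-3.83). The remaining negative values were Igtp (-3.62), Il10 (-3.56), Dusp1 (-3.5), Ccnd1 (-3.09), Usp18 (-3.03), Cd86 (-2.77), Nlrc5 (-2.41), Mlkl (-2.29) and Stat2 (-2.12).

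Positive values began with Gbp2 (1.53), Socs3 (2.08), Gbp5 (2.27), Cebpa (2.5), Tlr2 (2.6), Cbr3 (2.65), Cxcl10 (3.15), Il1b (3.34), Cish (3.41) and Socs2 (3.5). They went on with Csf2 (3.7), Isg15 (3.81), Slc6a9 (3.88), Hey1 (3.89), Samd5 (3.91), Il23a (4.1), Ifnb1 (4.14), Cxcl2 (4.19), Acod1 (4.46) and Irf4 (4.52). The highest were Aox1 (4.55), Zfp704 (4.6), Cxcl1 (4.66), Oasl1 (4.81), Ifit1 (5.03), Stxbp6 (5.04), Cxcl3 (5.19), Spns2 (5.9) and Rtp4 (6.52). Of the values listed, those of Cxcl10 and Gbp5 changed sign with their other probe, and Zfp618 gave -0.03 and -2.01 by its other probes. Some listed genes were not well above background on either array of at least 1 group. Among them were Lipg, Slfn4, Angpt1, Ifi214, Ddx4, Ifit2, Spns2, Cxcl3, Stxbp6, Zfp704, Aox1, Samd5, Il23a, Ifnb1, Ifit1 and Oasl1. Their values rest in part on unmeasured signals, so the size of these values is uncertain.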

How the results depend on the processing

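Leaving out 1 array at a time, where a group of 1 array was assumed to vary like the other groups, gave 1505 (without KO_LPS replicate 2) to 5224 (without WT_LPS replicate 2) genes called between the genotypes under LPS in place of 4333, also 1770 without KO_LPS replicate 1, and 50 (without KO_LPS replicate 1) to 2068 (without WT_LPS replicate 2) interactions in place of 768. Interactions numbered 57 and 65 without KO_untreated replicate 2 or 1, 111 without KO_LPS replicate 2, and 228 and 304 without WT_untreated replicate 1 or 2. The LPS response gave 4073 to 6715 genes in WT and 1943 to 4733 in Ifnar1-/- cells, and the untreated comparison 231 to 1555. The lowest of these were without WT_untreated replicate 2, KO_LPS replicate 1 and KO_untreated replicate 2. With the slide as a random block (replicate block, pairing the arrays of a slide) the interaction called 2383 genes and the LPS response in Ifnar1-/- cells 5983. A fixed block called 1067 interactions. The interaction called 1266 genes under normexp and 451 with no filter on dim probes, and the fit of only the 4 LPS arrays called 1977 genes under LPS. The share of called genes that were higher fell with a 75th percentile shift from 58.4% to 47.3% in untreated cells. Il12b ranged from -1.09 to 1.02 under LPS and turned positive and called without WT_LPS replicate 1. The Cxcl10 interaction turned to -0.18 (adjusted p = 0.903, limma) with the mean of all its probes. A floor on dim values, an alternative chosen after seeing the data, called 1151 interactions. Dim probes have no measured level below background, which limits folds for genes absent from a group. The cause of these changes was not tested.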

Other observations

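A list of Tlr4, its co-receptors, related Toll-like receptors and the adaptors and kinases of their signal showed few differences under LPS. Of its 17 genes 1 was called higher (Irak1, a kinase, 0.86) and 1 lower (Tirap, an adaptor, -0.73) in Ifnar1-/- cells. The median was -0.04, and 15.5% and 9.85% of all genes were called higher and lower. Tlr4 itself read 11.56 and 11.63 on the WT LPS arrays and 10.56 and 11.04 on the Ifnar1-/- ones, a difference of -0.80 that was not called (95% confidence interval -1.41 to -0.19), and its co-receptor Cd14 differed by 0.45 (-0.08 to 0.98). Tlr2, the receptor of bacterial lipoproteins, read 15.32 and 15.32 untreated and 16.09 and 15.46 with LPS in WT cells, and 12.75 and 13.16 untreated and 16.01 and 16.02 with LPS in Ifnar1-/- cells, an interaction of 2.60 ± 0.37 (adjusted p = 0.0187, limma).

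Cholesterol efflux and LXR target genes split evenly, with 2 of 11 higher and 2 lower under LPS (median 0.00), against 15.5% and 9.85% of all genes. Scd1 (1.45) and Scd2 (3.60), desaturases that make monounsaturated fatty acids, were higher, and Pltp (-2.47), a phospholipid transfer protein, and Abcg1 (-0.87), a sterol exporter, were lower. No interaction was called in this list by limma. Of 9 markers of T, B and NK cells 2 were called higher under LPS, Cd79b (1.88) and Klrb1c (1.27), and 0 lower, against 15.5% and 9.85% of all genes. By sign 5 were higher and 4 lower. Cd3g, Cd3d and Ncr1 were not above background on both arrays of any group.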
